A study of Canis lupus familiaris with 2 samples.

Results

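The interferon system was examined in a pair of canine glioma subclones through 44 genes that were listed by name for their part in interferon signalling or as interferon-stimulated genes. Members were matched by symbol to probe sets that carry exactly 1 gene symbol in the array annotation. Of the 44, 38 had such a probe set (74 probe sets in all), out of 15115 genes named on the array by the same rule. IFNAR2, IFIT1, IFIT3, OASL, SAMD9 and BST2 had no matching probe set and are only named here.

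J3T-1 and J3T-2 are subclones that come from the same parental canine glioma cell, with similar genetic backgrounds and different invasion and angiogenesis phenotypes. Each is represented by 1 Affymetrix expression array, made from 250 ng of total RNA of cells cultured in DMEM with 10% fetal bovine serum, penicillin and streptomycin. The labels give no interferon, virus or other treatment for either subclone, so the comparison is between the subclones as cultured. Every value is 1 measurement of 1 subclone, without replicates, so no test between the subclones was possible.

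Interferons are cytokines that cells release when they detect virus or misplaced nucleic acid. Type I interferon binds the receptor made of IFNAR1 and IFNAR2, and interferon gamma binds IFNGR1 and IFNGR2. Janus kinases at the receptors then phosphorylate STAT proteins, and STAT2 acts with IRF9 in the complex that switches on interferon-stimulated genes. Those genes encode sensors of double-stranded RNA, the ubiquitin-like modifier ISG15 with its enzymes, and effectors that block viral entry, translation and replication. Many of them have low basal expression and are strongly induced by interferon, while receptors and signalling factors are expressed before any stimulus.

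Signals are MAS5 intensities on a linear scale, and pairs of signals are given with J3T-1 first and J3T-2 second. A signal no higher than the median of its own array, controls left out, was treated as not measured (the floor, 19.0 and 22.0). The log2 ratio is J3T-2 over J3T-1, so positive values are higher in J3T-2. A gene's value is that of its brightest probe set, and at least 2-fold was the size rule for calling a difference. The median log2 ratio of all 9248 genes with a ratio was 0.17, a shift towards J3T-2 that single values below still contain. The SD of the log2 ratio within a gene's probe sets was 0.26 as a root mean square over 4580 genes, and 0.31 over the 15 members with several probe sets above both floors. This spread is technical and covers no difference between cultures. Probe sets of 1 transcript can share probes, so they are not independent measurements.

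Glioma and astroglial markers were mixed: VIM (8130 and 7961), SOX2 (411.1 and 1191) and SLC1A3 (771.3 and 2396) were far above the floor, while GFAP, S100B and AQP4 were at the floor on both arrays. Of 12 leukocyte and microglia markers with a probe set, 9 were at the floor on both arrays, among them PTPRC (5.6 and 7.5), CSF1R (1.9 and 7.2) and ITGAM (3.6 and 13.9). CD4 (40.9 and 37.4) and CD68 (19.5 and 23.0) were above both floors, and CD3E (20.1 and 16.3) was above the floor in J3T-1 only. The summed signal of all 12 was 130.1 against 147.2. Of 6 endothelial markers 4 were at the floor, PECAM1 and KDR included, while CDH5 (36.8 and 26.5) and VWF (21.0 and 22.8) were above both floors. The sums over all 6 were 81.6 and 72.5. Of the plasmacytoid dendritic cell markers 3 of 4 were at the floor, and the fourth, TCF4 (786.1 and 597.2), is a factor that many other cell types express. In bulk RNA, fewer cells of a type and less RNA per cell cannot be told apart.

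The interferon genes were first counted by role for a measurable signal. All 3 receptor genes with a probe set and 5 of 6 transcription factors were above the floor on both arrays. At the floor on both were 6 of 14 antiviral effectors (42.9%), 2 of 6 RNA sensors (33.3%) and 2 of 9 genes of the ISG15 and ubiquitin system (22.2%). For all genes named on the array this share was 37.6%, and each role holds few genes. Over the whole set 26 members had a ratio, 11 were at the floor on both arrays (28.9%, against 37.6% of all genes named on the array), and CMPK2 was above the floor in J3T-1 only by a margin that gives no fold. J3T-2 had the higher signal for 21 of the 26 (80.8%, beside 64.7% over all genes), and J3T-1 for 5 of the 26 (19.2%, beside 35.2%). The 21 include IRF1, IRF3 and USP18, which changed direction under each of the 3 other scalings. Relative to the median of all genes, 18 members lay towards J3T-2 and 8 towards J3T-1.

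A single member, IFI35, passed 2-fold towards J3T-2 (3.85% of the members with a ratio), where 7.43% of all genes with a ratio did. OAS2 and SAMD9L, 2 members, passed 2-fold towards J3T-1 (7.69%), where 3.56% of all genes did. In either direction, 11.5% of the members and 11.0% of all genes were past 2-fold, so the share of members called was close to the background. With ratios centred on the median of all genes the counts of members were again 1 and 2, and the background was 4.98% and 4.83%. The median log2 ratio of the 26 members was 0.35, which is 0.17 above that of all genes.

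**Figure D1:**
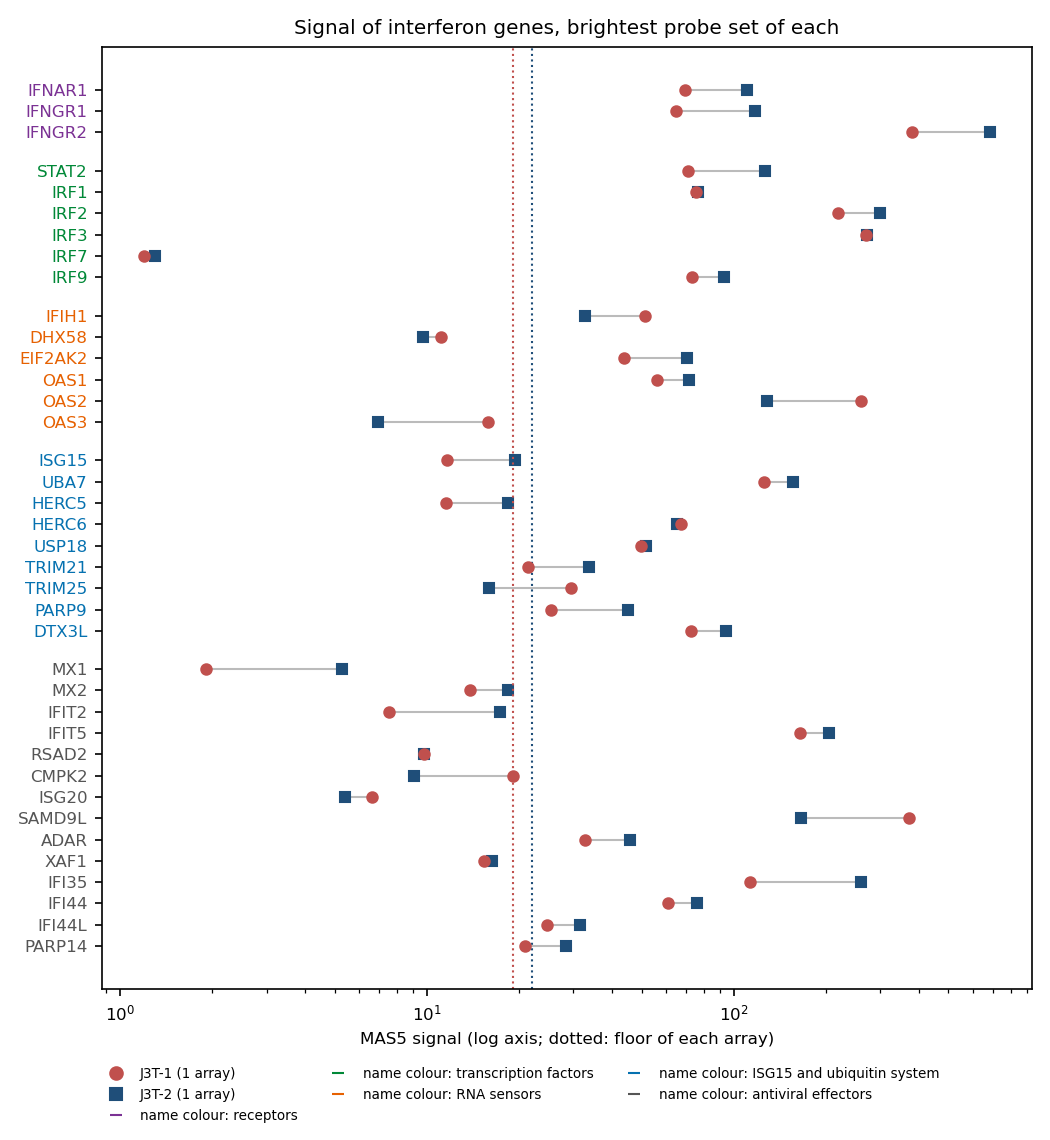
MAS5 signal (log axis) of the 38 interferon genes with a probe set, by the brightest probe set of each, in J3T-1 (circles) and J3T-2 (squares), 1 array each; dotted lines mark the floors of 19.0 and 22.0, and name colours mark the 5 roles. The receptors sit to the right of both floors with J3T-2 higher, and MX1, MX2, IFIT2, RSAD2, ISG20 and XAF1 sit left of them on both arrays.

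The receptor subunits were all higher in J3T-2, by somewhat under 2-fold. IFNGR2, the signal-transducing subunit of the interferon gamma receptor, had signals of 379.3 and 681.7, a 1.8-fold difference. The 2 further probe sets above the floor gave almost the same value, with 124.8 and 211.2 in one (1.69-fold) and 120.9 and 217.7 in the other (1.8-fold), so this was the receptor with the best agreement between probe sets (SD of 0.05 in log2 ratio, 3 probe sets). IFNGR1, the ligand-binding subunit of the same receptor, had 65.0 and 117.2 (1.8-fold), and its second probe set had 43.4 and 56.9 (1.31-fold). IFNAR1, a subunit of the type I interferon receptor, had 69.1 and 110.1 (1.59-fold). Its second, dimmer probe set had 28.8 and 91.6 (3.18-fold), so the size of the IFNAR1 difference depended on the probe set while the direction did not. By the median over probe sets IFNAR1 passes 2-fold, with a log2 ratio of 1.17. The median log2 ratio of the 3 receptors was 0.85, which is 0.67 above the median of all genes.

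Among the transcription factors, STAT2 differed most. STAT2, the STAT protein specific to type I and type III interferon signalling, had signals of 70.7 and 126.6 (1.79-fold). Another 3 probe sets, all above both floors, gave 1.6-fold, 1.6-fold and 2.16-fold in the same direction, and the last was above the floor in J3T-1 only (20.9 against 11.3) and gave no fold. IRF9, the DNA-binding partner of STAT2, had 73.1 and 92.8 (1.27-fold), with 39.5 and 61.4 (1.55-fold) in a second probe set. STAT2 and IRF9 thus lay in the same direction as the receptors, IRF9 by a smaller step.

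The interferon regulatory factors lay closer together. IRF2, a factor that can repress IRF1 targets, had 219.1 and 299.1 (1.37-fold), and its second probe set above the floor gave 1.06-fold. IRF3, which is activated downstream of nucleic acid sensors to switch on interferon beta, had 269.8 and 270.8, and IRF1, an activator that is itself induced by interferon gamma, had 75.4 and 76.3. Their log2 ratios of 0.01 and 0.02 were nominally towards J3T-2 as deposited and towards J3T-1 under each of the 3 other scalings (-0.17 and -0.16 with median centring), so no direction is given for them. IRF7, the amplifier of type I interferon production that is itself interferon-induced, was at the floor on both arrays (1.2 and 1.3). The median of the 5 measured factors was 0.34.

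**Figure D2:**
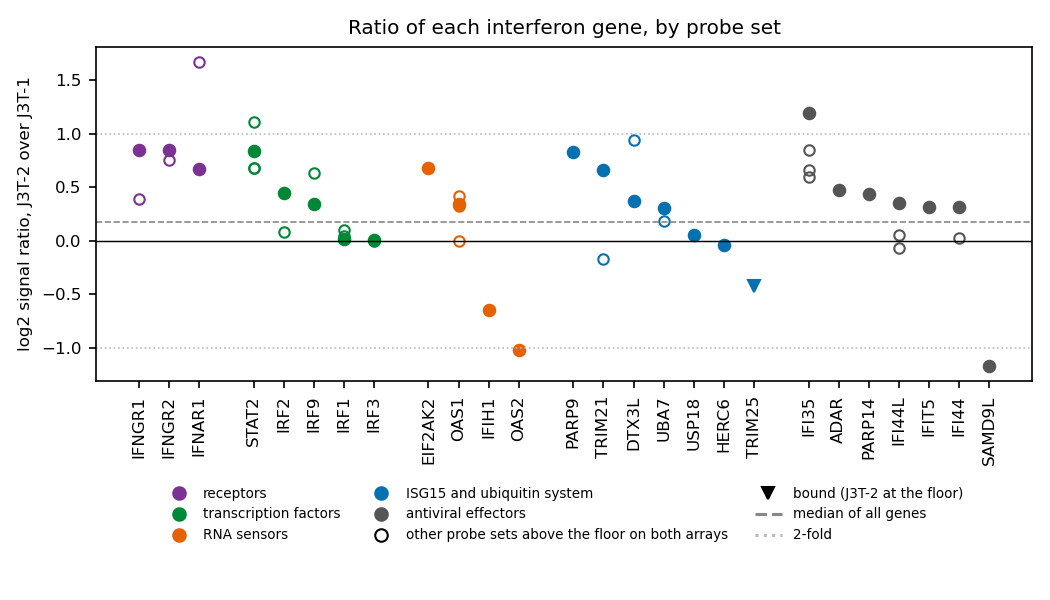
Log2 signal ratio (J3T-2 over J3T-1) of the 26 interferon genes with a ratio, in 5 role groups ordered by value; filled circles are the brightest probe set, open circles other probe sets above both floors, the triangle a bound with J3T-2 at the floor. Receptors and STAT2 lie between the median of all genes (dashed, 0.17) and the 2-fold line or above it, IFI35 is above 2-fold by 1 of its 4 probe sets, and OAS2 and SAMD9L are below the lower 2-fold line.

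The sensors of double-stranded RNA went in both directions. OAS2, an enzyme that makes the 2-5A messenger that activates RNase L, had signals of 259.3 and 127.8, or 2.03-fold more in J3T-1. IFIH1, which encodes the cytosolic receptor MDA5, had 51.3 and 32.7 and was 1.57-fold higher in J3T-1. EIF2AK2, which encodes the kinase PKR that stops translation on binding viral RNA, went the other way with 43.8 and 70.4 (1.61-fold higher in J3T-2). Each of these 3 genes was read by a single probe set.

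OAS1, a relative of OAS2 with the same catalytic activity, had 56.3 and 71.4 (1.27-fold higher in J3T-2), and its other 3 probe sets above the floor ranged from 1.0-fold to 1.34-fold. DHX58, which encodes LGP2, a regulator of MDA5, was at the floor on both arrays (11.1 and 9.7), as was OAS3 (15.8 and 6.9). The median of the 4 measured sensors was -0.15. It turned to 0.34 without probe sets of an _x_at or _s_at suffix, which mark probes shared between transcripts, which leaves OAS1 as the only sensor, since OAS2, IFIH1 and EIF2AK2 are measured by such probe sets. The 2-fold call of OAS2 was also lost with no floor and a pseudocount of 16 (log2 ratio -0.94).

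Of the ISG15 system and the interferon-linked ubiquitin ligases, 5 of the 7 genes with a ratio were higher in J3T-2 (71.4%, beside 64.7% of all genes), 4 of them by more than the median of all genes. None of the 7 reached 2-fold. ISG15 itself, the modifier that is attached to other proteins, was at the floor on both arrays (11.6 and 19.3), as was its main ligase HERC5 (11.5 and 18.4). UBA7, the enzyme that activates ISG15, had 125.5 and 155.3 (1.24-fold), with 1.14-fold by its second probe set. USP18, the protease that removes ISG15 and restrains the type I receptor, had 49.8 and 51.7, and HERC6, a relative of HERC5, had 67.0 and 65.1. The USP18 and HERC6 differences were 1.04-fold and 1.03-fold, and USP18 changed direction under the 3 other scalings (-0.12 with median centring).

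The ubiquitin ligase subunit PARP9 had 25.3 and 45.1 (1.78-fold higher in J3T-2), and its partner DTX3L had 72.5 and 94.1 (1.3-fold), or 28.2 and 54.3 (1.93-fold) by a second probe set. TRIM21, an antibody receptor and ubiquitin ligase, had 21.3 and 33.8 (1.59-fold higher in J3T-2), but its second probe set had 25.7 and 22.8 and lay the other way. The J3T-1 signals of TRIM21 and PARP9 were close to the floor of 19.0. TRIM25, the ligase that helps activate the RNA sensor RIG-I, had 29.4 against a J3T-2 signal at the floor (15.9), which makes J3T-1 at least 1.34-fold higher. The median over the 7 was 0.31.

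The antiviral effectors divided into genes without measurable signal and genes with moderate signal. MX1 (1.9 and 5.3) and MX2 (13.8 and 18.4), dynamin-like GTPases that trap viral components, were at the floor on both arrays. So were IFIT2 (7.5 and 17.3), which binds viral RNA, RSAD2 (9.8 and 9.8), which encodes viperin, the exonuclease gene ISG20 (6.6 and 5.4) and XAF1 (15.3 and 16.3). CMPK2, a nucleotide kinase gene next to RSAD2 on the chromosome, had 19.1 and 9.1. None of these genes gave a fold, and differences below the floor were not interpretable on these arrays.

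J3T-2 had the higher signal for 6 of the 7 effectors with a ratio (85.7%, beside 64.7% of all genes). IFI35, an interferon-induced leucine zipper protein that pairs with NMI, had 113.0 and 259.2 (2.29-fold). Its other 3 probe sets had 108.6 and 195.0 (1.8-fold), 97.3 and 147.5 (1.52-fold) and 60.6 and 95.9 (1.58-fold). All 4 were higher in J3T-2, and 1 of 4 passed 2-fold. By the median over probe sets IFI35 had a log2 ratio of 0.75 and was not called. Without _x_at and _s_at probe sets its log2 ratio was 0.84, again not called.

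SAMD9L, an interferon-stimulated gene that restrains translation and growth, had 372.4 and 165.9 by its single probe set. Its signal was 2.24 times as high in J3T-1, the lowest log2 ratio of the 26 members (-1.17), and stayed past 2-fold in the 8 other scaling, floor and probe set settings (-1.35 to -1.09). ADAR, the editing enzyme that marks double-stranded RNA as self, had 32.8 and 45.7 (1.39-fold higher in J3T-2), and PARP14, an ADP-ribosyltransferase, had 20.9 and 28.3 (1.35-fold). IFIT5, an RNA-binding relative of IFIT2, had 163.7 and 204.3 (1.25-fold). IFI44 had 61.1 and 75.9 (1.24-fold) and IFI44L had 24.6 and 31.4 (1.28-fold), with 1 of its 3 probe sets the other way. These 5 lay 0.14 to 0.30 in log2 ratio above the median of all genes.

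Counted by probe set, 43 of the 49 member probe sets above both floors were higher in J3T-2 (87.8%), beside 66.3% of the 15210 such probe sets of all genes. Past 2-fold were 3 of the 49 towards J3T-2 and 2 towards J3T-1, or 10.2% beside 9.57% over all genes. In 13 of the 15 members with more than 1 such probe set every one pointed the same way, and IFI44L and TRIM21 were the exceptions. Several of the 49 read the same gene, so they are not separate units. They include probe sets of IRF1, IRF3 and USP18, genes whose direction depended on the scaling. By gene, 18 of 26 members lay above the median of all genes, and the share past 2-fold was close to the background.

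**Figure D3:**
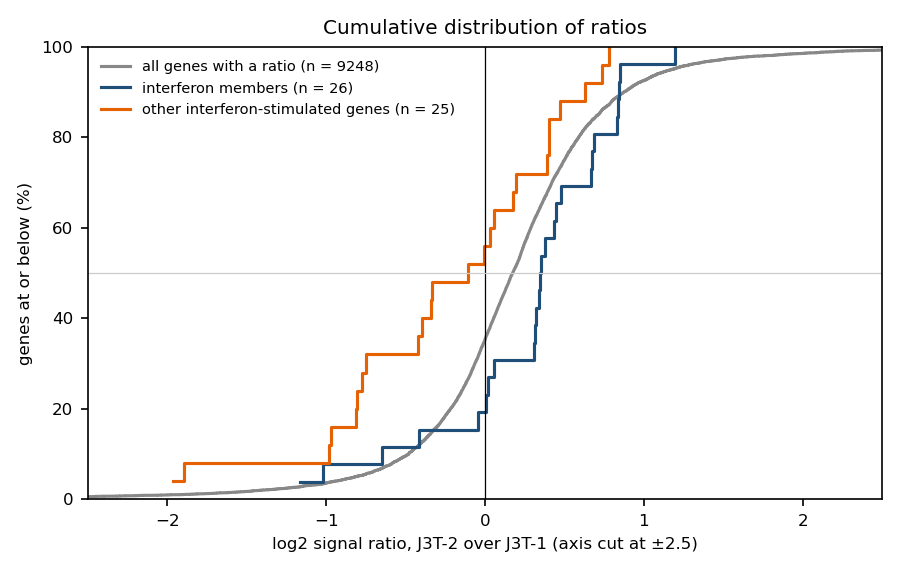
Cumulative share of genes (%) at or below each log2 signal ratio (J3T-2 over J3T-1, axis cut at ±2.5) for all 9248 genes with a ratio, the 26 interferon members and 25 other interferon-stimulated genes. The members' curve crosses 50% at about 0.35 and the other list's at -0.11, on either side of the median of all genes at 0.17.

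Further genes of the pathway were taken from lists that hold no member. The interferon genes themselves gave no measurable signal: IFNB1 (6.0 and 4.1), IFNG (17.4 and 8.1), IFNK (1.4 and 4.9) and IFNL1 (7.4 and 3.8) were at the floor on both arrays, and the other 4 ligands listed had no probe set. Of the receptor kinases and partners, 5 of 8 with a probe set had a ratio and 0 were at least 2-fold apart. JAK1, the kinase shared by all interferon receptors, had 1303 and 1269, JAK2 of the gamma receptor had 142.1 and 102.8, and TYK2 of the type I receptor had 55.6 and 86.4, with a second probe set of TYK2 the other way. The receptor subunits were thus higher in J3T-2 without a common direction among the kinases that bind them.

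Of the 18 genes listed as inducing sensors and adaptors, kinases included, 8 had no probe set, DDX58 (RIG-I), MB21D1 (cGAS) and IFI16 among them. Of the 6 with a ratio, 5 were higher in J3T-2 (83.3%, beside 64.7% of all genes), and 4 lay above the median of all genes. The IRF3 kinase gene IKBKE had 34.8 and 89.2 (2.56-fold), the one member of this list at least 2-fold apart. That call was lost by the median over its probe sets (log2 ratio 0.92), and IKBKE had no value with the floor at the 75th percentile. Its relative TBK1 had 308.8 and 596.7 (1.93-fold) and the endosomal RNA receptor TLR3 had 62.8 and 108.7 (1.73-fold). MAVS (4.4 and 14.5) and STING1 (18.4 and 16.7), the adaptors of RNA and DNA sensing, were at the floor on both arrays. The median of this list was 0.54 over 6 genes.

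Negative regulators were evenly split, 4 of 8 each way, with a median of 0.02, where 64.7% of all genes were higher in J3T-2. PIAS1, a SUMO ligase that restrains interferon signalling, had 170.7 and 471.4 (2.76-fold higher in J3T-2), and 1.74-fold and 3.4-fold by 2 more probe sets. SOCS1 (0.7 and 2.4) and SOCS3 (17.7 and 17.2), feedback inhibitors that interferon induces, were at the floor on both arrays. The phosphatase gene PTPN2 had 134.3 and 114.2, with a second probe set the other way.

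Among 43 other interferon-stimulated genes with a probe set, 18 were at the floor on both arrays (41.9%, beside 37.6% of all genes named on the array). CXCL10 (7.7 and 4.3), IDO1 (17.7 and 16.2) and DDX60 (1.0 and 6.0) were among them. J3T-1 had the higher signal for 14 of the 25 with a ratio and J3T-2 for 11, with a median of -0.11. TNFSF10, the death ligand TRAIL, had 455.4 and 116.6 (3.91-fold higher in J3T-1) and GBP5, a guanylate-binding protein of the interferon gamma response, had 156.3 and 42.1 (3.71-fold). These 2 were the only ones of the 25 past 2-fold as deposited, and none was past it towards J3T-2. They make up 8.0% of the 25, beside 11.0% of all genes. The count of 2-fold genes in this list was 4 with median centring (background 9.82%), 6 with quantile normalization (9.59%) and 5 with loess (9.58%), each over 25 genes. Raising the floor to the 75th percentile brought GBP5 to -0.37 (log2) and ended its call, and leaving out _x_at and _s_at probe sets gave -2.68. Both values are bounds with J3T-2 at the floor, so J3T-1 is at least that much higher. IFI6, a mitochondrial protein of the interferon response, had 85.9 and 43.8 (1.96-fold higher in J3T-1, and 2.4-fold by a second probe set). NMI, the partner of IFI35, had 350.5 and 541.8 (1.55-fold higher in J3T-2), with all 5 of its probe sets in that direction. The share of this list that was higher in J3T-2 was 44.0%, below the 64.7% of all genes where that of the members was above it. Whether the lists differ was not tested.

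**Figure D4:**
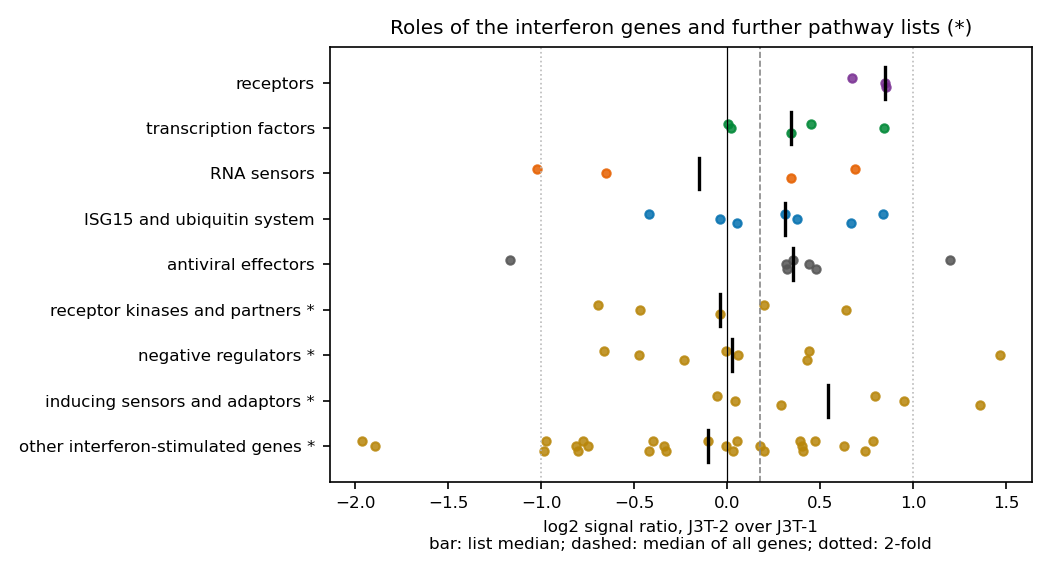
Log2 signal ratio (J3T-2 over J3T-1) of single genes in the 5 roles of the interferon members and in 4 further pathway lists (marked *); bars are list medians, the dashed line is the median of all genes (0.17) and dotted lines are 2-fold. The receptors lie at 0.67 to 0.85, the sensors are spread from -1.02 to 0.68, and the other interferon-stimulated genes extend furthest towards J3T-1, to -1.97.

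Several members lay in chromosome stretches whose genes as a whole differed between the subclones. Neighbours were taken from the RefSeq gene table of the assembly UU_Cfam_GSD_1.0 as the 10 measured genes on each side. STAT2 lies on chromosome 10, where the median log2 ratio was 0.59 over the measured genes, and its 20 flanking genes had a median of 0.87, with 19 of 20 higher in J3T-2. Its own ratio of 0.84 was passed by 12 of the 20. IFI35 lies on chromosome 9, with a chromosome median of 0.58 and a flanking median of 0.67, and 18 of its 20 neighbours were higher in J3T-2, 1 of them by more than IFI35 itself (1.20). SAMD9L lies on chromosome 14, where the median was -0.27. Its 20 neighbours had a median of -0.33, with 14 higher in J3T-1 and none as far towards J3T-1 as SAMD9L (-1.17). The part of these regional shifts in the values of STAT2, IFI35 and SAMD9L was not tested.

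The remaining members varied in how close they lay to their neighbours. OAS2 on chromosome 26 had 18 of 20 flanking genes higher in J3T-2 (median 0.16), and none of them was as low as OAS2 (-1.02). Its neighbours OAS1 and OAS3 in the same gene cluster were at 0.34 and at the floor. TRIM25 on chromosome 9 was higher in J3T-1 amid neighbours with a median of 0.33. IFNAR1 and IFNGR2 are neighbours on chromosome 31 and had ratios of 0.67 and 0.85 beside a flanking median of 0.22 for each, and IFNGR1 on chromosome 1 had 0.85 beside 0.21. The adjacent genes PARP9, DTX3L and PARP14 on chromosome 33 were all higher in J3T-2 (0.83, 0.38 and 0.44) beside flanking medians of 0.16 to 0.23, and the adjacent IFI44 and IFI44L on chromosome 6 had near-equal ratios (0.31 and 0.35), close to their flanking medians of 0.21 and 0.28. HERC6 on chromosome 32 was at -0.04 beside a flanking median of 0.53, with 8 of 20 neighbours as low or lower, and its neighbour HERC5 was at the floor.

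With the members of chromosomes 9, 10 and 14 left out, 19 of 22 were higher in J3T-2, the median was again 0.35, and OAS2 was the one member at least 2-fold apart. IFI35 and SAMD9L lie on the chromosomes left out, so OAS2 was the only call that could remain. The choice of chromosomes was made after seeing the data. With each ratio taken relative to the median of its flanking genes, 18 of 26 lay towards J3T-2 with a median of 0.09, and OAS2 was again the one past 2-fold. The receptor genes then had a median of 0.62 and the transcription factors -0.022. Shares over all genes were not computed in either setting, so these counts have no background beside them.

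**Figure D5:**
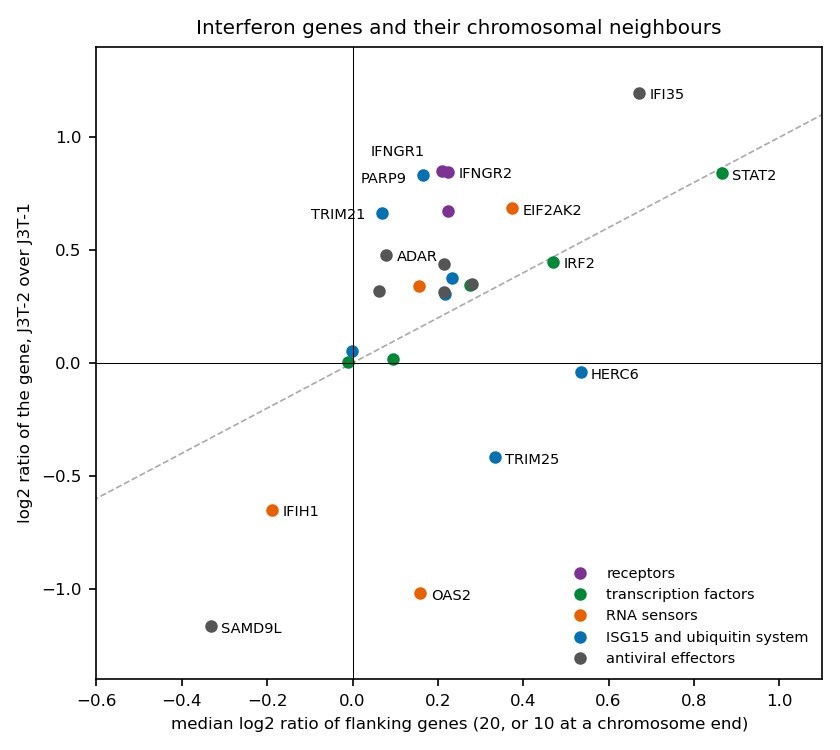
Log2 ratio of each of the 26 interferon genes (vertical axis) against the median log2 ratio of its flanking measured genes (horizontal axis; 20 genes, or 10 for USP18 at a chromosome end), both J3T-2 over J3T-1, coloured by role; the dashed line marks equality. STAT2 and IRF2 lie close to the line, IFNGR1, IFNGR2 and PARP9 lie above it, and OAS2, TRIM25 and SAMD9L lie well below it.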

How the data were processed

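Each probe set has 1 deposited intensity per array on a linear scale, from MAS5 per the submitters' processing notes. What MAS5 version, scaling target or detection calls were used is not given in the sources used here. Of 43035 probe sets, 111 were controls, and 29254 of the others had 1 gene symbol, 439 several and 13231 none. The brightest probe set (highest mean log2 signal before the floor, signals under 0.1 set to 0.1) stood for a gene. Signals were floored at each array's median and log2 ratios taken without further scaling. A gene was measured when above the floor on at least 1 array (9433 genes). Where 1 array was at the floor the ratio is a lower bound, and where that bound fell under 1 (185 genes) no ratio was given. With 1 array per subclone no p-value was computed, and the number of arrays limits the precision.

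Members, roles, lists and the naming rule (every member accounted for; in full those at least 2-fold apart and the 3 largest ratios per role; list genes at least 2-fold apart) were chosen with earlier results of these data known. Other list genes were named after their values were seen. Of the alternatives, 8 were planned and 2 were added after seeing the data. Chromosomes came from UU_Cfam_GSD_1.0, by Entrez ID or else by symbol. No sequences are shown. Calling by size was checked on simulated data, with changes planted only in brighter genes above both floors and noise of 0.26 (log2). That check covers neither genes near the floor nor differences between cultures. Software was matplotlib 3.10.9, pandas 2.3.3, numpy 2.4.6, statsmodels 0.14.6 and Python 3.11.15.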

Additional observations from a re-analysis of the deposited data

How the results depend on the processing

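Over the 8 planned settings, 23 of the 26 members kept their direction wherever they could be measured, and IRF1, IRF3 and USP18 did not. The share of all 2-fold genes that were higher in J3T-2 was 67.6% as deposited, 50.8% with median centring, 48.4% with quantile normalization and 48.6% with loess. The number of members higher in J3T-2 was 18 of 26 with median centring, and 18 of 27 with quantile normalization and with loess.

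With the floor at the 25th percentile, 2 members passed 2-fold towards J3T-2 and 4 towards J3T-1, over 37 with a ratio, as IFIT2, OAS3 and CMPK2 passed through signals under the median. Of all genes with a ratio at that floor, 17.9% were past 2-fold in either direction. The sensors' median was then -0.42. At least 2-fold apart were 2 of 11 negative regulators, 3 of 10 inducing sensors and adaptors and 6 of 39 other interferon-stimulated genes, beside the same 17.9%. With the floor at the 75th percentile 9 members were left, and the sensors' median was -1.02 (OAS2 alone). Of the 9, 1 passed 2-fold towards J3T-2 (IFI35) and 2 towards J3T-1 (OAS2 and SAMD9L). This share was above the 7.53% of all genes past 2-fold in either direction at that floor. At that floor 0 of 2 inducing sensors and adaptors and 1 of 11 other interferon-stimulated genes were 2-fold apart, beside 7.53% of all genes. With no floor 1 of 38 members passed 2-fold each way, beside 5.5% of all genes in either direction. Without _x_at and _s_at probe sets it was 1 of 20 each way, beside 11.3%, and the sensors' median was 0.34. The member towards J3T-2 was then IFNAR1, not IFI35, and the one towards J3T-1 was SAMD9L. The median over probe sets left 0 of 6 inducing sensors and adaptors at 2-fold, beside 10.3% of all genes. Other interferon-stimulated genes at least 2-fold apart numbered 4 of 25 with median centring, 6 with quantile normalization and 5 with loess. The shares of all genes were 9.82%, 9.59% and 9.58%.

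Of the 2 settings added after seeing the data, leaving out chromosomes 9, 10 and 14 left 0 members past 2-fold towards J3T-2 and 1 towards J3T-1. So did subtracting the flanking median, which put the transcription factors' median at -0.022. The share of all genes past 2-fold was not computed in either setting. IFI35 and SAMD9L lie on chromosomes 9 and 14, so leaving those out removed their calls in advance. Ratios of genes near the floor, TRIM21, PARP9, PARP14 and IFI44L among them, are limited by signal over background. No paired analysis was possible because each subclone has 1 array.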
